A study of Mus musculus with 12 samples.

Results

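The measurements described here are the 3 arrays, of 12 in the series, that compare retinas of mouse eyes injected with gold particles of 20 nm with retinas of eyes injected with phosphate-buffered saline (PBS). The arrays were chosen by their titles alone. All mice were male C57BL/6 of 5 weeks with an intravitreal injection into the right eye, and retinas were collected 7 days later. The groups were gold 20 nm, gold 100 nm, silicate 20 nm, silicate 100 nm and PBS, with 12 mice in each. Retinas were pooled by 4, so that a group had 3 tubes, and the eyes had no other treatment in the labels. The sample labels write the size as 20 nM and the growth protocol speaks of diameters in nm, and sizes are given in nm below. Each array carried RNA of a particle tube in the red dye Cy5 and RNA of PBS-injected eyes in the green dye Cy3. A log2 ratio is therefore gold over PBS, and a negative value is lower with gold. Dyes were never exchanged, so a probe that takes up the dyes unequally has that effect in every ratio to PBS, and dye and group cannot be told apart in them. The dye effect drops out of a difference between particle groups.

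The 3 gold 20 nm arrays lay on 3 slides, each of which also held 1 array of every other particle, and each group had the same place on all slides, so that place and group cannot be told apart. The labels do not say which PBS tube was put on which array. PBS levels differed less among the 4 arrays of a slide (median SD over genes 0.0486 to 0.0873 on the log2 scale) than between slides (0.164). Below, the PBS channel of a slide is called its PBS tube, a reading of these levels that the labels do not give. Of 23032 genes tested, 141 were higher and 1446 lower by over 1 on the log2 scale on slide 1, against 245 and 37 on slide 2 and 73 and 120 on slide 3. Slide 1 stood apart: the gold arrays' SD of the log2 ratio over genes was 0.64 there, 0.27 on slide 2 and 0.25 on slide 3, and the PBS channel of slide 1 was rich in transcripts of immune cells, as given below. Each tested marker of retinal neurons and Müller glia was well above background in some or all PBS channels of these arrays. Values below are in the order of slides 1, 2 and 3. No spot was saturated. Nothing in the labels ties a tube to single animals, so the p-values measure the spread between pools of retinas.

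Crystallins are the structural proteins of the lens, where they are packed at high concentration in fibre cells and keep the lens clear. The alpha crystallins Cryaa and Cryab are chaperones that hold damaged proteins in solution, whereas beta and gamma crystallins are related to each other in sequence and have mainly a structural part. Crystallin transcripts are also found in the retina, and lens tissue can come along when a retina is dissected. In bulk RNA, fewer cells of a type and less RNA per cell cannot be told apart.

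Among genes with a symbol, the lowest log2 ratios shared by all 3 gold 20 nm arrays were those of the gamma crystallins Cryga, Crygb, Crygc, Crygd, Cryge and Crygf, a cluster of similar genes on chromosome 1. All 6 were lower in the gold tube than in the PBS tube on every slide, by 1.36 to 3.82 on the log2 scale. All 3 gold levels lay below all 3 PBS levels for 6 of 6, against 5.47% of all genes with values on the 3 arrays. Cryge was the member that passed the test, with a mean log2 ratio of -3.32 ± 0.53 (SD, n = 3 tubes), which is 9.98-fold lower with gold (adjusted p = 0.0492, limma with Benjamini-Hochberg adjustment over all genes). With gold 20 nm, 15 genes fell in all, which is 0.0651% of those tested. All 6 gamma genes had an unadjusted p under 0.05, as had 8.85% of all genes. The 6 are named here for their low ratios on these same arrays and are similar genes. Their counts beside the shares over all genes are therefore a description and no separate support.

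The promoters of these 6 genes are shown because the genes had low values together on the gold 20 nm arrays. Each line gives the 90 bases before the transcription start in RefSeq (GRCm38.p6), 5′ to 3′ on the strand of the gene, and capitals mark TATATA and CTTTTGTG.
Cryga, chr1:65103364-65103453, minus strand: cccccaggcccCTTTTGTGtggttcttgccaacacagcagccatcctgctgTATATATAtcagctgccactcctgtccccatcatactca
Crygb, chr1:65082291-65082380, minus strand: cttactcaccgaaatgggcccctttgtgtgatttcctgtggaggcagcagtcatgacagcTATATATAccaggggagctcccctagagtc
Crygc, chr1:65073533-65073622, minus strand: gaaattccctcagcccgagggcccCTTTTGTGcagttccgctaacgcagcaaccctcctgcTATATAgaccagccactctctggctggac
Crygd, chr1:65063441-65063530, minus strand: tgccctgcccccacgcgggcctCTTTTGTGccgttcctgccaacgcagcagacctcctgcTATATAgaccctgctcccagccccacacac
Cryge, chr1:65051164-65051253, minus strand: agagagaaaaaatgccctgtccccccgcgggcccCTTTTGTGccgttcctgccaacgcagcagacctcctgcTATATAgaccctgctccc
Crygf, chr1:65926432-65926521, plus strand: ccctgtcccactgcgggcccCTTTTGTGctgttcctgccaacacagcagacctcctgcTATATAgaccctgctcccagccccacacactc
TATATA, on either strand, was present in 6 of 6 of these windows and in 2.0489% of 32407 windows of the same length in the RefSeq table, these 6 included. CTTTTGTG, chosen as a run shared by the gamma crystallins, was present in 5 of 6, the window of Crygb being without it. It was present in 0.4104% of all windows. Because the 6 genes are similar, and CTTTTGTG was also chosen for being shared, neither count is a test of enrichment. The letters are a description of the windows and were not tied to any binding.

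Cryge had levels of 7.89, 9.01 and 8.28 with gold 20 nm and 11.31, 12.80 and 11.03 with PBS. The gold tubes were low on all slides, and the groups were separated by more than their own ranges. Crygf, on the same scale, had 7.21, 8.09 and 7.22 with gold and 10.43, 11.91 and 9.65 with PBS, a mean log2 ratio of -3.15 ± 0.70 (SD, n = 3) that missed the threshold (adjusted p = 0.0931 by limma). A second Crygf probe gave -2.47. Cryge and Crygf are near-identical in sequence, and a probe can bind the transcripts of both, so their values may not be separate. Crygc had 11.66, 13.02 and 12.91 with gold and 13.63, 15.67 and 14.91 with PBS. Its mean log2 ratio was -2.21 ± 0.39 (adjusted p = 0.117 by limma), and its other probes gave -1.80 and -1.68. Cryga averaged -2.08 ± 0.48, Crygd -1.78 ± 0.51 and Crygb -1.76 ± 0.34 on the log2 scale, with adjusted p of 0.107, 0.122 and 0.152 in the limma fit. The PBS tube of slide 2 held the highest level of each gene whose levels are given here.

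**Figure D1:**
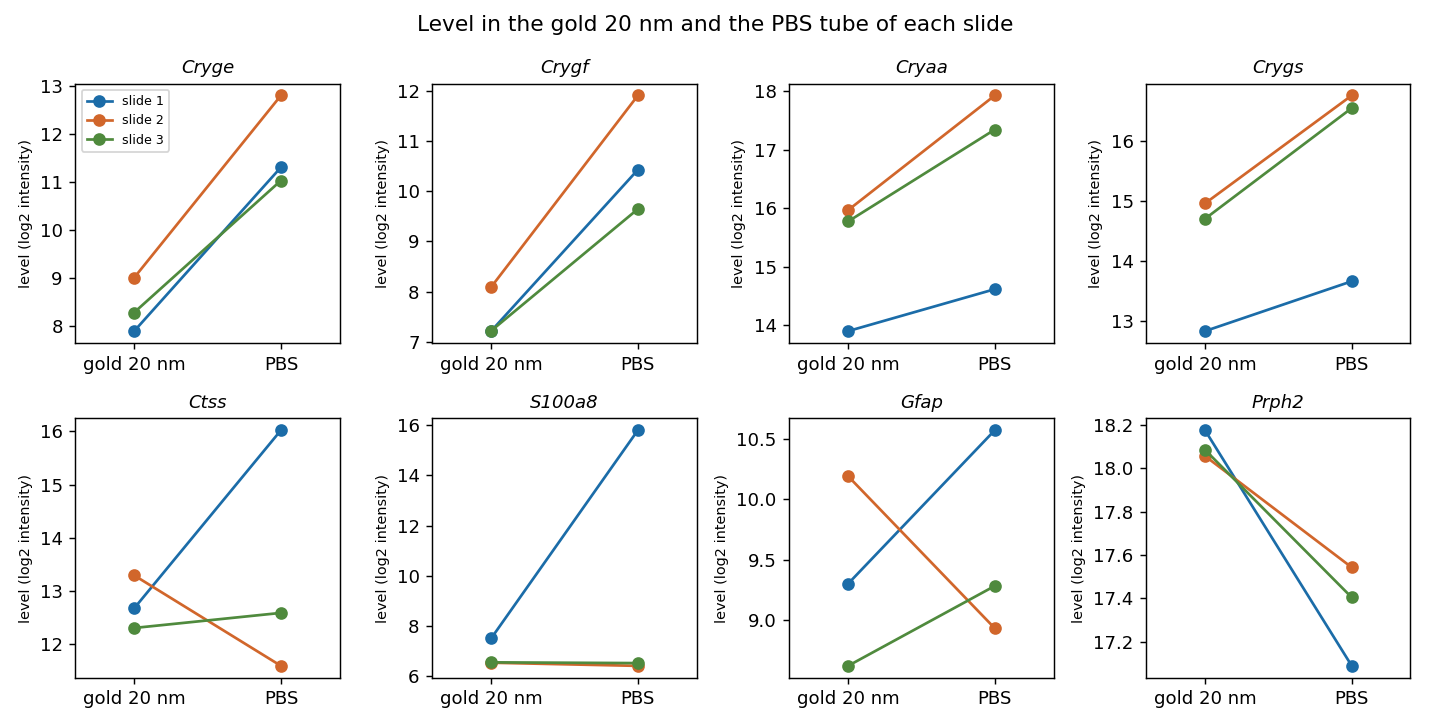
Levels (log2 intensity, vertical axis, with a range of its own in each panel) of 8 genes in the gold 20 nm tube, on the left, and the PBS tube, on the right, of each slide, with a line joining the 2 channels of 1 array. The gamma crystallins Cryge and Crygf are lower with gold on all 3 slides with no overlap of levels, Cryaa and Crygs are lower on all 3 slides with overlapping levels, Ctss, S100a8 and Gfap have a high PBS level on slide 1, and Prph2 is higher with gold on all 3 slides.

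The call for Cryge was close to the threshold. It was lost with the slide as a random block (adjusted p = 0.0748), with no filter on dim probes (0.0571) and with a stricter filter (0.108). It was also lost with the gold 20 nm arrays alone (0.194) and when a slide was left out (adjusted p between 0.143 and 0.902 by limma, mean log2 ratio -3.08 to -3.60). The Cryge call was kept with the slide as a fixed block (adjusted p = 0.0121), with median centring (0.0237) and with the processed signals of the scanner software (0.0209). It was also kept in the series' value table (0.0313) and without both silicate arrays of slide 3 (0.00955). Crygf passed with the fixed block (adjusted p = 0.0109 by limma), with the processed signals (0.0191), in the value table (0.0304) and without those silicate arrays (0.0159). Cryga passed with the fixed block (0.0487). The fixed block leaves the spread between slides, that of the PBS channel included, out of the error. Its p-values therefore do not measure that spread.

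Against the other particles, gold 20 nm was near gold 100 nm and below the silicates for these genes. Cryge on the gold 100 nm arrays had log2 ratios of -2.42, -3.66 and -2.99, so that gold 20 nm minus gold 100 nm was -0.29 ± 0.87 (SE, adjusted p = 1). It had 0.24, 1.71 and 2.34 with silicate 20 nm and -0.42, 0.87 and 3.37 with silicate 100 nm. The difference of gold 20 nm from the mean of the other 3 particles was -3.21 ± 0.71 for Cryge (SE, unadjusted p = 0.00123, adjusted p = 1 by limma). The median log2 ratio of the 6 gamma genes was -1.87, -2.64 and -1.92 on the gold 20 nm arrays and -0.23, -2.55 and -2.36 on the gold 100 nm arrays. On slide 1 the gold 100 nm array gave values between -0.28 and 0.00 for Cryga to Crygd, beside -2.42 for Cryge and -3.09 for Crygf, whereas gold 20 nm was low for all 6. The medians were -0.20, 1.06 and 0.82 with silicate 20 nm and 0.30, 0.39 and 2.20 with silicate 100 nm. All particle arrays of a slide are set against PBS RNA, and neither difference was called for any gamma gene.

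Outside the gamma cluster the lens genes were also lower with gold 20 nm, by less and with overlapping levels. Of 26 lens genes listed, 24 were tested. Of these 24, which include the 6 gamma genes of the cluster, 21 were lower on all 3 arrays, against 18.4% of all genes. Without slide 1 the count was 24, against 31.7%. The median of the whole list, the 6 included, was -1.40 (log2 ratio), against -0.01 over all genes, with -0.75 on slide 1, -1.74 on slide 2 and -1.66 on slide 3. Of the 18 tested lens genes other than Cryga to Crygf, 15 were lower on all 3 arrays, and their median log2 ratio was -1.13. The gold and PBS levels overlapped in all 18, and none passed the test, with 3 at an unadjusted p under 0.05 (limma). Cryaa had levels of 13.90, 15.97 and 15.77 with gold and 14.62, 17.92 and 17.34 with PBS, a mean log2 ratio of -1.41 ± 0.64 (adjusted p = 0.757 by limma). Crygs, a gamma crystallin outside the cluster, had 12.83, 14.96 and 14.70 with gold and 13.66, 16.76 and 16.55 with PBS. Slide 1 was low in both channels for Cryaa and Crygs, so the tubes of either group overlapped those of the other.

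The 8 alpha and beta crystallins were all lower on all 3 slides, with mean log2 ratios between -1.70 and -0.98. The lens water channel Mip had levels of 7.62, 10.43 and 9.33 with gold and 8.46, 11.87 and 10.90 with PBS. Bfsp1, which encodes a protein of the beaded filament of lens fibres, averaged -1.50 ± 0.39 on the log2 scale (adjusted p = 0.511 by limma), and Lgsn, lengsin, averaged -1.38 ± 0.32 (adjusted p = 0.361). The gap junction gene Gja3 and the membrane protein gene Lim2 were the least shifted, at -0.17 and -0.34. For the lens genes other than Cryga to Crygf, the median log2 ratio was -0.40, -1.39 and -1.58 with gold 20 nm and 2.84, 0.47 and -1.61 with gold 100 nm. Gold 100 nm thus had high values on slide 1 where gold 20 nm was below 0, and the values of both were near each other on slide 3. Whether lens tissue in the tubes had a part in these values was not tested.

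**Figure D2:**
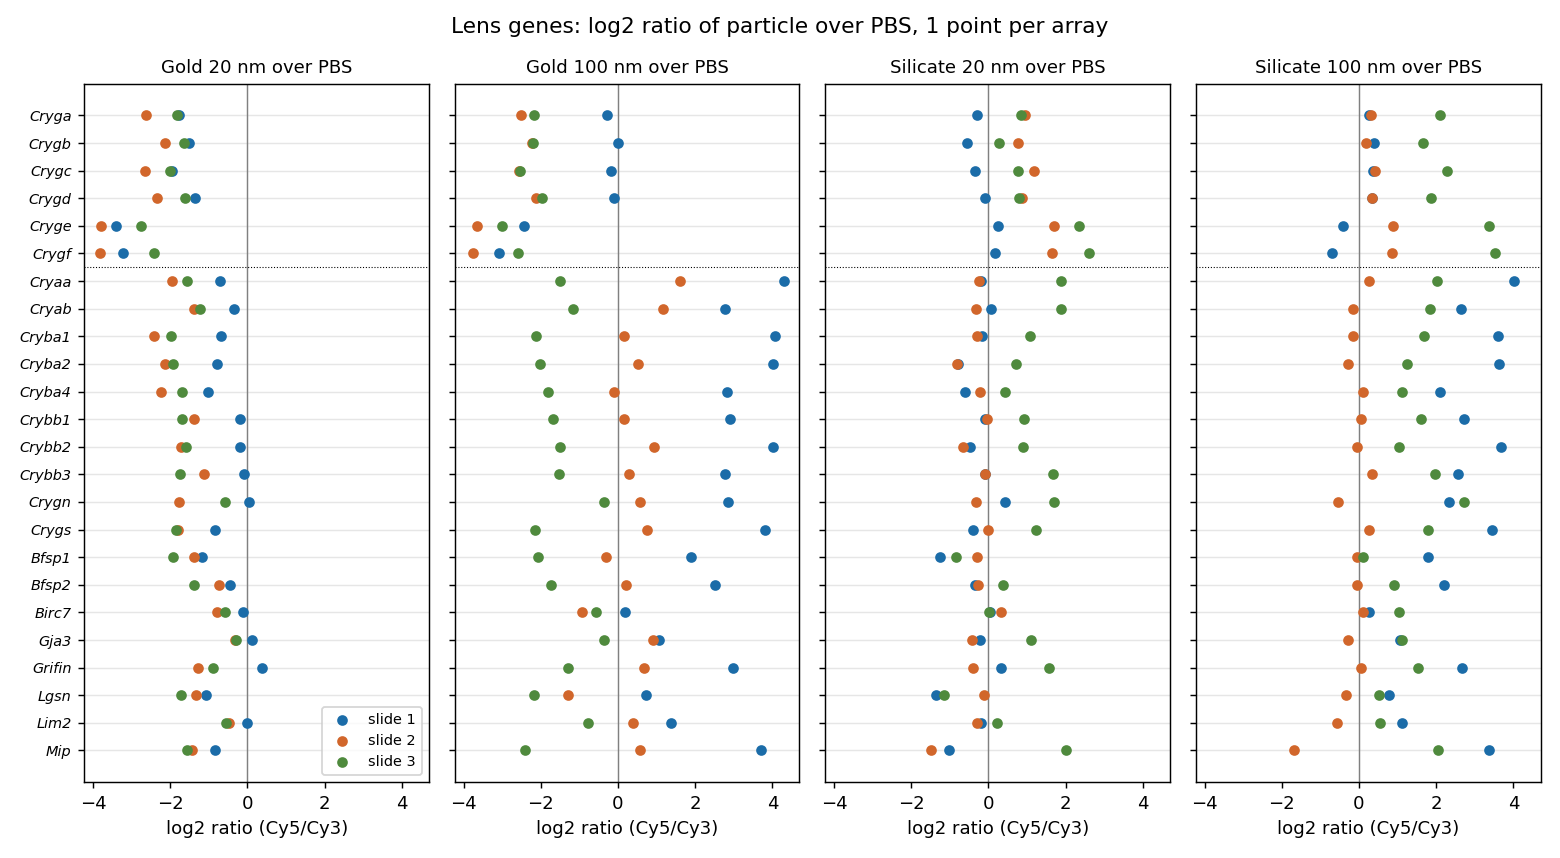
Log2 ratio of each particle over PBS (horizontal axis) for the 24 lens genes tested, 1 point per array and 1 colour per slide, with the gamma crystallins Cryga to Crygf above the dotted line. On the gold 20 nm arrays all points of the gamma genes lie between -3.82 and -1.36, and on the gold 100 nm array of slide 1 the remaining lens genes lie between 0.18 and 4.30.

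Genes whose log2 ratio was beyond 1 in the same direction on all 3 gold 20 nm arrays numbered 14 lower (0.0608% of genes with values on the 3 arrays) and 29 higher (0.126%). Of the 14 lower ones, 9 have a gene symbol, and these were Cryge, Crygf, Crygc, Cryga, Crygd, Crygb, Cryba4, Bfsp1 and Lgsn, all of the lens list. Among the 12 higher ones with a symbol were Optc, opticin, a proteoglycan of the vitreous made in the ciliary body, with log2 ratios of 2.97, 3.35 and 1.36, and Penk, the precursor of enkephalin peptides made by amacrine cells, with 2.24, 2.34 and 1.07. Neither passed the test (adjusted p = 0.117 for Optc and 0.28 for Penk, by limma). Optc averaged 3.68 with gold 100 nm, 3.03 with silicate 20 nm and 2.22 with silicate 100 nm, and Penk 3.21, 2.19 and 1.71, on the same scale.

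With gold 20 nm, 149 genes rose (0.647% of the genes tested) and 15 fell against PBS, in all 0.712%, at an adjusted p under 0.05. Of the 164, 159 had the same sign on all 3 arrays and the other 5 lacked a value on at least 1 array. These 5 were Olfr996, Olfr1382, Olfr1040 and Olfr160, named here after their values were seen, and a transcript without a symbol. A symbol was available for 70 of those that rose and 8 of those that fell. Many of the rises were in dim probes: 74 of the 149 were not well above background in any PBS channel of these arrays, against 179 of all 23032 genes, and genes of this kind can pass the filter on dim probes through the particle channel alone. The genes that rose had a median log2 ratio of 0.85 over PBS, and their median difference from the other 3 particle groups was 0.04. With the slide as a random block 122 genes rose and 6 fell, of which 106 and 5 were among those above. With the slide as a fixed block, which leaves the spread between slides out of the error, the counts were 650 and 392. They took in all 164. Without slide 1, whose PBS channel stood apart, 53 rose and 1 fell. Without slide 2, 12 rose, and without slide 3, 8 rose, in each case with 0 falls.

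Serpina6, which encodes the corticosteroid-binding globulin of blood, had the largest rise among genes with a symbol and values on all 3 arrays. Its levels were 8.56, 9.00 and 8.91 with gold 20 nm and 6.02, 6.16 and 6.08 with PBS, where it was not well above background, so that the rise was at least 5.89-fold (adjusted p = 2.88e-06, limma). The other particles gave 2.57 with gold 100 nm, 2.51 with silicate 20 nm and 2.35 with silicate 100 nm (2 arrays with a value) as mean log2 ratios, beside 2.74 with gold 20 nm. With the scanner software's processed signals the gold 20 nm value of Serpina6 was 6.37 on the log2 scale. Such a bound is computed against the higher of the dim probe's own PBS signal and the lowest signal well above background on that array. The other genes of the glucocorticoid list, 11 of 12 tested, had no call, and Cdkn1a and Mt2, 2 of its members, averaged -1.03 ± 1.90 and -0.65 ± 1.62 on the log2 scale, and a second Cdkn1a probe averaged 0.33.

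AY074887, a predicted gene with no assigned role, was well above background in all channels, with levels of 8.63, 9.11 and 9.17 with gold and 6.72, 6.90 and 6.92 with PBS. Its mean log2 ratio was 2.12 ± 0.18 (adjusted p = 8.61e-06, limma), but its second probe gave -0.10, so the probes of this gene disagree. The other particles averaged 2.1, 2.19 and 2.1, and its gold 20 nm value with processed signals was 3.42. Prokr1, a receptor of prokineticin peptides, had log2 ratios of 1.4, 2.32 and 2.20 with gold 20 nm (adjusted p = 0.00421, limma), against means of 1.97, 1.91 and 1.83 with the other particles, and 4.06 with processed signals. Only 1 of 3 PBS channels had Prokr1 well above background, and its call was lost without slide 2 (adjusted p = 0.451) and without slide 3 (0.265). Dlgap5, a mitotic spindle gene, rose at least 3.20-fold (adjusted p = 0.000187, limma), with 1.79 for the probe tested and 0.54 for the second probe as mean log2 ratios. The 13 other tested genes of the proliferation list had no call, and the list's median was -0.15.

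Gucy2d, which in the mouse encodes the guanylate cyclase of a class of olfactory neurons, was the riser with the tightest values among those named, with log2 ratios of 1.41, 1.55 and 1.45 and a rise of at least 2.46-fold (adjusted p = 0.000108, limma). It averaged 1.39 with gold 100 nm, 0.57 with silicate 20 nm and 1.00 with silicate 100 nm, and its difference from the mean of the other 3 particles was 0.49 ± 0.11 (SE, unadjusted p = 0.00153, adjusted p = 1). Its call was lost without slide 3 (adjusted p = 0.0802, limma). Nxf3, related to mRNA export factors, rose at least 2.97-fold, Tmigd1, an immunoglobulin-domain membrane protein, at least 2.81-fold, Dsc3, a desmosomal cadherin, at least 2.51-fold, and Sntn, a protein of the tips of cilia, at least 2.43-fold. D130043K22Rik and Chodl, a lectin-like membrane protein, rose by 1.52 and 1.35 on the log2 scale, and the Chodl call was lost with the slide as a random block (adjusted p = 0.0568, limma). Without slide 3 the calls of all but 2 of the 20 named genes were lost, and without slide 2 all but 4.

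Olfactory receptor genes, which serve odour detection in the nose, made up 15 of the 149 rises. Of 161 such genes tested, 19 were not well above background in any PBS channel of the gold 20 nm arrays, and 11 of the 15 rises were among these 19. Genes of this kind can pass the filter through the particle channel alone, so the count is a description and is not set against the share over all genes. Olfr1012, not well above background in any PBS channel, rose at least 2.01-fold (adjusted p = 0.0114, limma). Olfr220 fell by 0.38 on the log2 scale (adjusted p = 0.0435, limma), was well above background on 1 of 3 gold channels and lost its call with the slide as a random block (adjusted p = 0.127). What part the dyes had in these rises was not tested.

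**Figure D3:**
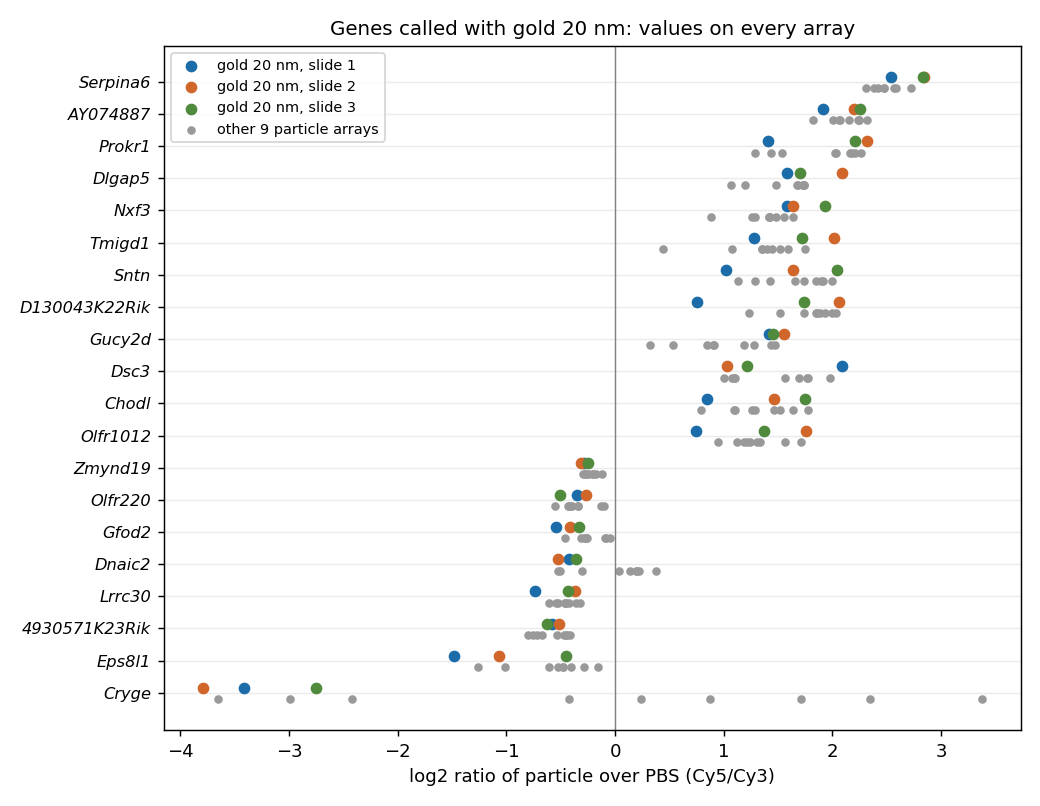
Log2 ratio of particle over PBS (horizontal axis) for the 20 genes named by rule among those that rose or fell with gold 20 nm, as coloured points by slide, with the 9 arrays of the other particles in grey just under them. For Serpina6, AY074887 and Prokr1 the grey points lie within or close to the range of the gold 20 nm points, whereas for Cryge 3 grey points, all of gold 100 nm, lie near gold 20 nm and 6 lie above them.

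Beside Cryge, the falls were small. Eps8l1, a relative of the actin regulator Eps8, had levels of 7.33, 8.17 and 8.45 with gold 20 nm and 8.81, 9.24 and 8.90 with PBS, and fell by 1.00 ± 0.52 on the log2 scale (adjusted p = 0.0444, limma). Its gold levels were all below its PBS levels. The Eps8l1 call was kept with the slide as a random block (adjusted p = 0.047, limma). It was lost with no filter on dim probes (0.0514), with the stricter filter (0.0993) and without any 1 slide (0.0788 to 0.902). The difference of gold 20 nm from the other 3 particles was -0.42 for Eps8l1 (unadjusted p = 0.0744, limma). Dnaic2, which encodes an intermediate chain of axonemal dynein in cilia, had 8.10, 8.14 and 8.37 with gold and 8.53, 8.66 and 8.73 with PBS. Its mean log2 ratio was -0.43 ± 0.08 with gold 20 nm (adjusted p = 0.0294, limma) and averaged -0.44 with gold 100 nm, 0.19 with silicate 20 nm and 0.20 with silicate 100 nm. The difference of gold 20 nm from the other 3 particles was -0.42 ± 0.08 for Dnaic2 (SE, unadjusted p = 0.000619, adjusted p = 1). The Dnaic2 call against PBS was lost with the processed signals (adjusted p = 0.576, limma), with the slide as a random block (0.058) and with the stricter filter (0.0833). It was also lost in the value table (0.124), without both silicate arrays of slide 3 (0.0625) and without any 1 slide (0.262 to 0.902). It was kept with the fixed block (0.0109), with median centring (0.0497) and with no filter on dim probes (0.0316). Gfod2 fell by 0.43, Lrrc30 by 0.51 and Zmynd19 by 0.28 on the log2 scale, and these 3 calls were also lost with the random block (adjusted p = 0.0693, 0.0704 and 0.0566, limma). Lrrc30 was well above background in 2 of 3 gold channels. 4930571K23Rik, not well above background with gold, was at least 1.49-fold lower (adjusted p = 0.0173, limma). The other particles averaged -0.44, -0.45 and -0.50 for Lrrc30 and -0.21, -0.24 and -0.24 for Zmynd19.

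Between gold 20 nm and the mean of the other 3 particles, a difference in which dye effects drop out, 0 of 23030 genes passed (smallest adjusted p = 1, limma), and 407 had an unadjusted p under 0.05, which is 1.77%. Between gold 20 nm and gold 100 nm, 0 genes passed as well, and 184, or 0.799%, had an unadjusted p under 0.05. Both counts were 0 under every alternative tried, including both block fits. The unadjusted shares are of the fit without a slide block, in which spread shared by the arrays of a slide stays in the error. A low share there does not show that the particles are alike. Of the 164 genes called against PBS, 23 and 10 had an unadjusted p under 0.05 in these 2 comparisons. The 164 were chosen on the same gold 20 nm values that enter both comparisons, so these 2 counts are a description and no test. All 3 gold 20 nm ratios lay below those of the other 9 particle arrays for 41 genes (0.178%) and above them for 63 (0.274%). With 3 tubes a group, and with the spread between tubes and slides in the error, differences between particles of the size of the Cryge values did not pass.

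Genes of rod photoreceptors, which make up most cells of the mouse retina, mostly had log2 ratios above 0 with gold 20 nm, and none passed the test. Of 18 rod genes, all tested, 10 were higher on all 3 slides, against 18.7% of all genes, and for 8 the gold levels lay above all PBS levels, against 5.31%. Their median log2 ratio was 0.29, with 0.60, 0.09 and 0.24 by slide, so that slide 1, whose PBS tube was rich in immune transcripts, gave the highest value. Without slide 1, 10 of 18 were higher, against 31.6% of all genes. Prph2, peripherin of the disc rim, had levels of 18.18, 18.06 and 18.09 with gold 20 nm and 17.09, 17.54 and 17.40 with PBS, a mean log2 ratio of 0.76 ± 0.30 (adjusted p = 0.375, limma). Its partner Rom1 had 18.03, 17.88 and 17.96 with gold and 17.09, 17.43 and 17.41 with PBS, and all gold tubes were above all PBS tubes for both genes. Pde6b, a subunit of the phosphodiesterase of phototransduction, had the lowest mean log2 ratio of the list, -0.02, with levels of 13.85, 14.30 and 14.14 with gold and 13.62, 14.38 and 14.35 with PBS. The rods' median was 0.28 with gold 100 nm, -0.22 with silicate 20 nm and -0.09 with silicate 100 nm.

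The other retinal neurons and Müller glia had no call. Cones had a median log2 ratio of 0.05 with 12 genes tested, bipolar cells 0.10 with 14, amacrine and horizontal cells 0.20 with 15, retinal ganglion cells 0.20 with 14 and Müller glia genes of homeostasis 0.17 with 14. These medians were carried by slide 1, where amacrine and horizontal cells had 0.64 and ganglion cells 0.67, against -0.07 for both on slide 2 and 0.02 and 0.04 on slide 3. Gap43, a growth cone protein of ganglion cells, had levels of 12.56, 12.58 and 12.59 with gold 20 nm and 11.89, 12.40 and 12.19 with PBS (adjusted p = 0.439, limma). Its gold tubes lay above its PBS tubes, with little spread among them. Of 10 neuropeptide and receptor genes tested, Prokr1, described above, passed, against 0.647% of all genes called higher. On all 3 arrays 5 of the 10 were higher, against 18.7%. The list was chosen with earlier results of these data known, so these shares are a description.

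Macrophage and microglia genes had no common direction with gold 20 nm. Of 22 listed, 20 were tested, 0 passed in either direction and 0 had an unadjusted p under 0.05 by limma. Their median log2 ratio was -2.46 on slide 1, 0.99 on slide 2 and -0.34 on slide 3, so that the sign differed between slides. Ctss, cathepsin S of microglia and macrophages, had levels of 12.68, 13.30 and 12.31 with gold 20 nm and 16.02, 11.60 and 12.59 with PBS. The gold tubes stayed within 1 log2 unit of each other, and the PBS tube of slide 1 was far above the rest. Ms4a7, a macrophage gene, had 8.61, 8.49 and 7.72 with gold and 13.40, 7.07 and 8.06 with PBS. Adgre1, which encodes the surface antigen used to stain mouse macrophages, had 7.52, 7.71 and 7.17 with gold and 12.31, 6.82 and 7.50 with PBS. C1qa, of the first complement component, had 10.32, 10.28 and 9.40 with gold and 12.01, 9.14 and 10.13 with PBS.

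Neutrophil genes had their low ratios on slide 1, with no call, and 4 of 8 tested were lower on all 3 arrays, against 18.4% of all genes. S100a8, a calcium-binding alarmin, had levels of 7.50, 6.54 and 6.55 with gold 20 nm and 15.79, 6.41 and 6.52 with PBS. S100a9, its partner, had 10.85, 7.44 and 7.23 with gold and 17.02, 7.33 and 8.81 with PBS. On slides 2 and 3 the S100a8 levels of gold and PBS differed by 0.13 and 0.03. The list's median was -3.63, -0.02 and -0.19 with 8 of 12 genes tested, so that slide 2 was near 0 and not above it as for macrophages. S100a8 was well above background in 2 gold channels and 1 PBS channel. Genes of inflammation and chemokines had medians of -2.35, 0.38 and -0.00, those of antigen presentation -2.30, 0.53 and -0.37, and those of the interferon response -1.53, 0.80 and -0.32, with 0 calls in each. Il1b, the cytokine interleukin-1 beta, had 8.27, 6.56 and 6.21 with gold and 14.08, 6.17 and 6.24 with PBS, and was well above background in 2 gold channels and 1 PBS channel.

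Gliosis genes, which Müller glia and astrocytes raise on injury, followed the slides in the same way, with medians of -1.87, 1.1 and -0.33 over 17 genes tested and 0 calls. Gfap, the intermediate filament protein used as the usual marker of retinal gliosis, had levels of 9.3, 10.19 and 8.62 with gold 20 nm and 10.57, 8.93 and 9.28 with PBS. It was lower with gold on slides 1 and 3 and higher on slide 2. Complement genes had medians of -0.80, 1.11 and -0.27, and C3 had 11.05, 10.82 and 9.38 with gold and 14.91, 9.28 and 9.74 with PBS. The part that the immune content of the slide 1 PBS tube had in other values of that slide was not tested.

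**Figure D4:**
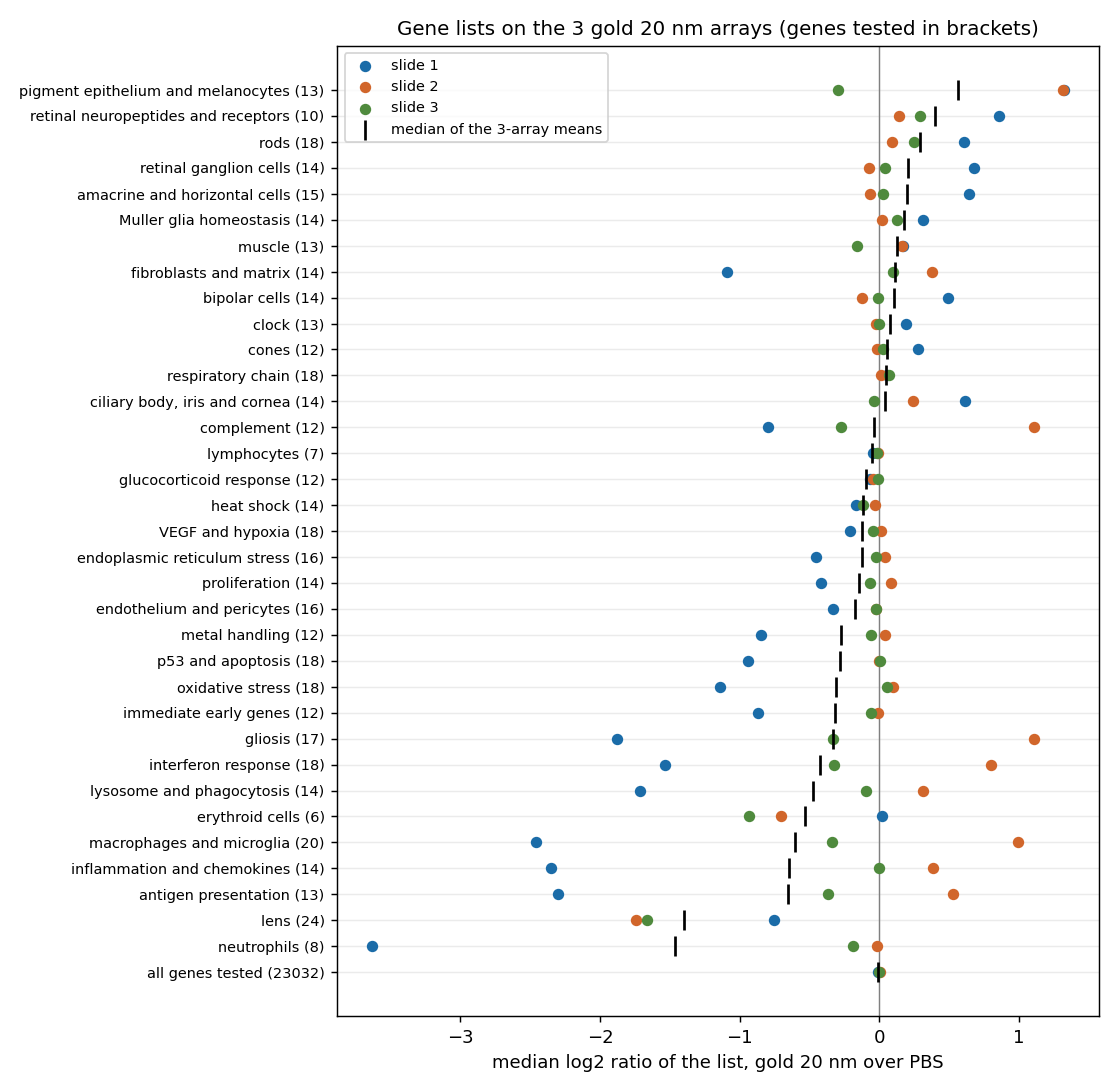
Median log2 ratio of gold 20 nm over PBS (horizontal axis) for each of 34 gene lists and for all genes, as 1 point per slide, with a black bar at the median over the 3-array means and the number of genes tested in brackets. The macrophage, gliosis, inflammation, antigen presentation, interferon and lysosome lists have slide 1 at -1.53 or lower and slide 2 above 0, the neutrophil list has slide 1 at -3.63 and slide 2 at -0.02, and the lens list lies left of 0 on all 3 slides.

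Genes of tissues next to the retina varied by slide. The pigment epithelium and melanocyte list had medians of 1.32, 1.31 and -0.30, with 13 of 14 genes tested and 0 calls. Tyrp1 and Dct, enzymes of melanin synthesis, had log2 ratios of 1.85, 4.29 and -0.15 for Tyrp1 and 2.69, 4.09 and -0.61 for Dct. Rpe65, the isomerase of the visual cycle in the pigment epithelium, had levels of 11.34, 12.13 and 12.11 with gold 20 nm and 9.91, 11.57 and 12.61 with PBS, which overlap. The ciliary body, iris and cornea list had a median of 0.04, with 0.61, 0.24 and -0.04 by slide. Of its 14 genes tested, 6 were higher on all 3 arrays, against 18.7% of all genes, and 2 lower, against 18.4%. Its highest members Fbln1, fibulin 1, and Optc had levels above PBS on every slide, with Fbln1 at 8.56, 9.94 and 7.88 with gold and 6.80, 6.38 and 7.17 with PBS (adjusted p = 0.321, limma). Krt12, the keratin of corneal epithelium, had 7.61, 7.24 and 9.08 with gold and 7.08, 7.26 and 13.20 with PBS, so that 1 PBS tube, on slide 3, was high. Aqp5, a water channel of secretory and corneal epithelium, averaged -0.80 ± 1.88 on the log2 scale. Among erythroid genes, the beta globin gene Hbb-bt had 12.30, 11.33 and 11.38 with gold and 12.14, 12.80 and 13.44 with PBS, a mean log2 ratio of -1.13 ± 1.15 (adjusted p = 0.562, limma).

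Stress and growth factor genes had no call with gold 20 nm. The medians were -0.31 for 18 oxidative stress genes, -0.28 for 12 metal handling genes, -0.12 for 14 heat shock genes, -0.13 for 16 genes of endoplasmic reticulum stress and -0.28 for 18 genes of the p53 response and apoptosis, all as log2 ratios. Slide 1 carried the values of these lists other than heat shock. The medians by slide were -1.14, 0.10 and 0.06 for oxidative stress and -0.85, 0.04 and -0.06 for metal handling. They were -0.94, -0.00 and 0.01 for p53 and apoptosis and -0.45, 0.04 and -0.025 for endoplasmic reticulum stress. Heat shock had -0.16, -0.03 and -0.12. The metallothionein gene Mt1, which metals induce, had levels of 15.95, 15.72 and 15.55 with gold 20 nm and 17.36, 15.11 and 15.60 with PBS. Hmox1, heme oxygenase 1, had 8.28, 7.35 and 8.93 with gold and 11.46, 7.60 and 8.42 with PBS. The PBS tube of slide 1 was again the highest in both. Chac1, an effector of the unfolded protein response that breaks down glutathione, was lower on all 3 slides, with log2 ratios of -1.50, -0.25 and -1.07 (adjusted p = 0.167, limma).

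Vegfa, the growth factor of blood vessels that drives neovascular eye disease, had 12.28, 12.38 and 12.37 with gold 20 nm and 12.06, 12.14 and 12.10 with PBS. Its log2 ratios of 0.23, 0.25 and 0.27 for the probe tested did not pass (adjusted p = 0.263, limma). The second Vegfa probe gave -0.33, 0.20 and 0.04, so the probes disagree on slide 1. The other particles gave 0.31, 0.41 and 0.30. The list of 18 VEGF and hypoxia genes had a median of -0.12, with -0.21, 0.01 and -0.05 by slide. The 16 endothelial and pericyte genes had -0.17, with -0.33, -0.03 and -0.03 by slide, so that both medians were near 0 outside slide 1, and neither list had a call. Uqcrh, a subunit of respiratory complex III, had log2 ratios of 0.41, 0.28 and 0.33 (adjusted p = 0.119, limma), and its second probe averaged 0.29. Hspa8, a constitutive chaperone, had 0.20, 0.33 and 0.26 with the probe tested (adjusted p = 0.0921, limma), but its other probes averaged -0.14 and -0.05. Of 18 respiratory chain genes, 7 were higher on all 3 slides, against 18.7% of all genes, and 2 lower, against 18.4%, with a median of 0.05.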

How the data were processed

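Gene expression in pooled mouse retinas was measured on 12 two-colour Agilent arrays. The deposited scanner files hold intensities. The version of Agilent's Feature Extraction software is 11.0.1.1 in the file headers and 9.3.2.1 in the submitters' processing notes. Median foreground and local background intensities were used, with the processed intensities, background-subtracted and dye-normalized by that software per the file headers, as an alternative. The deposited log10 ratio of Cy5 over Cy3 served to read the series' deposited value table, which holds log2 ratios: slopes on the log10 ratios were 3.3 to 3.32 and correlations across spots, which are not independent replicates, 0.942 to 0.995. Its column medians were 0.016, 0.033 and 0.045 for gold 20 nm, and its centring is unknown.

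Background was corrected with normexp (offset 50) and each array normalized by loess in limma 3.58.1 (R 4.3.3), with 1377 control spots at weight 0 and outlier spots (149 to 257 per array) left out. Levels are single-channel log2 values after loess and Aquantile scaling. Spots were averaged to 39429 probes, 28213 of which passed the filter on dim probes (in 1 group or more, either dye well above background on every array). Of 32334 RefSeq-type accessions, 6279 were not found in RefSeq's gene list for GRCm38.p6, which served only to name them. The brightest probe stood for a gene (4349 of 23032 genes had several probes), and 15451 genes had a symbol. One limma fit with 4 group means over 12 arrays gave gold 20 nm against PBS (the ratio against 0), against the other 3 particles and against gold 100 nm, in two-sided tests whose p-values were adjusted by Benjamini and Hochberg's method across all genes (threshold 0.05). The script was tested on simulated data. PBS RNA is on every array, so the comparisons of particles with PBS share it.

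Slides were read from the file headers. Arrays of a slide deviated together on slides 1 and 3 (correlation 0.888 to 0.934 and 0.55 to 0.92) and less on slide 2 (0.0817 to 0.831), and slide and scan coincide. The members and gene lists were chosen with earlier results of these data known. Genes were named by rule: the 12 highest and 12 lowest called means with 1 sign on 3 arrays, the 8 highest and 8 lowest by their smallest ratio, and from each list called members and the 2 highest and 2 lowest, and called genes of the other comparisons. Crygs, Cryaa, Cryba4, Mip, Ctss, C1qa, Gfap, Mt1 and Rpe65 were added after their values were seen. Promoter sequences are from RefSeq (GRCm38.p6), and all 6 gamma crystallin genes matched by symbol. Precision is limited by 3 arrays a group. Some genes of the lists are not reported here.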

Additional observations from a re-analysis of the deposited data

Results flagged for a closer look

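In these results every gold 20 nm array had 1 sign and every array of another particle the opposite sign, and the difference between the 2 groups was not tested. All values are mean log2 ratios over PBS, with gold 20 nm first.

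Against silicate 20 nm, Cryge had -3.32 against 1.43, Crygf -3.15 against 1.48, Dnaic2 -0.43 against 0.19, and the cone gene Guca1a 0.41 against -0.59. Dnaic2 had -0.43 against 0.2 with silicate 100 nm.

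Against silicate 100 nm, Crygc had -2.21 against 1.03, Cryga -2.08 against 0.89, Crygb -1.76 against 0.74 and Crygd -1.78 against 0.85. The lens crystallins Crygs and Cryaa had -1.49 against 1.83 and -1.41 against 2.1. The lens list as a whole had -1.39 against 1.29, and the gamma crystallins Cryga to Crygf -2.14 against 0.96, as means over slides of the list medians. The fast muscle gene Mylpf had -0.12 against 0.08, the clock gene Ciart 0.12 against -0.21, and the activity gene Arc -0.03 against 0.29. Guca1a, Mylpf, Ciart and Arc were chosen as extremes of their lists, and none of them passed the test against PBS.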

How the results depend on the processing

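The count of genes called between gold 20 nm and PBS depended on the processing. Against 164 calls (149 higher, 15 lower), there were 1042 with the replicate block that fits the slide as a fixed term (650 and 392), 355 with median centring in place of loess (331 and 24), 17 of fewer genes tested with the stricter filter (16 and 1), and 0 with the gold 20 nm arrays alone, where fewer arrays estimate the spread (0 and 0). The fixed term leaves the spread between slides, that of the PBS channel included, out of the error of the test against PBS. Calls lower numbered 6 with the slide as a random block and 26 in the value table. Leaving out 1 slide gave 8 to 54 calls, 8 to 53 of them higher and 0 to 1 lower, with fewer samples in the fit, and leaving out both silicate arrays of slide 3 gave 195 (181 and 14). Of 20 named calls, 13 were kept with the random block, 20 with the replicate block and 2 to 8 without 1 slide, and none changed sign in these fits. Both particle comparisons stayed at 0. For single genes and lists, 17 values passed the threshold that had not, 98 no longer passed, 22 moved and none reversed. The alternatives without 1 slide for counts of list members were chosen after seeing the data. Depth is limited by signal over background: 67.6% to 73.4% of probes were well above it in Cy5.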
